A study of Mus musculus with 2 samples.

Results

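Histone genes lie in clusters of the mouse genome, and the array named them by a symbol that starts with Hist and the number of the cluster. All probes with such a gene name were taken, which gave 56 genes of 37074 gene names on the array, measured by 68 probes of 60 bases. By the histone they encode, 6 were linker histone H1 genes, 18 H2A, 14 H2B, 9 H3 and 9 H4 genes. Well above background on both arrays were 54 of the 56 genes, among 20350 such genes of the whole array. *Hist1h2al* and *Hist2h2ab* were not well above background on either array, and no value is given for them.

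DNA is wound around an octamer of the core histones H2A, H2B, H3 and H4, and H1 sits on the linker DNA between these particles. Most genes of the clusters are replication-dependent, which means that dividing cells transcribe them mainly in S phase, when new chromatin is assembled. Their mRNAs carry no introns and end in a conserved stem-loop, which SLBP binds, in place of a poly(A) tail. Cardiac muscle cells of adult mice rarely divide, while cultured and passaged cells can.

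The cells were MCMs, mouse cardiomyocytes that were bought, cultured in DMEM with 2% fetal bovine serum and used at passage 10 to 20. One culture received siRNA-NC, a negative control siRNA, and the other siRNA-*Ppp2r5d*, against the transcript of the B56δ regulatory subunit of protein phosphatase 2A. Both cultures were without glucose from 48 h on, and their RNA was taken 64 h after transfection. It was labelled with Cyanine 3. There was 1 array per group, so no difference has a replicate check, no test was run and no p-value is given. Since these are bulk RNA samples, fewer cells expressing a gene and less RNA per cell cannot be told apart.

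*Ppp2r5d*, the target, had an intensity of 4700 with siRNA-NC and of 676 with siRNA-*Ppp2r5d*, a log2 fold change of -2.61. Of 10 cardiomyocyte markers, 8 stood well above background on 1 array or both, 6 of them on both, and *Actn2* and *Pln* on neither. Of 6 fibroblast markers 5 were, including *Col1a1* and *Dcn*, with *Thy1* on neither array. Most markers of both lists were thus detected, at unlike levels. With siRNA-NC *Actc1* had an intensity of 6440, *Nkx2-5* 1080 and *Tnnt2* 858, while *Mb* had 89.8, *Myh7* 48.1 and *Tnni3* 45.0. *Dcn* had 10900 and *Col1a1* 7340. The count of detected markers therefore does not settle the identity of the cells. Summed over measured probes and relative to the 75th percentile of the array, the cardiomyocyte markers were at 14.5 on both arrays and the fibroblast markers at 579.9 and 584.3 for siRNA-NC and siRNA-*Ppp2r5d*. Within the latter list *Pdgfra* had a log2 fold change of 0.63, or 1.54-fold higher, and *Postn* 0.12, while *Col1a2*, *Dcn* and *Col1a1* had -0.31, -0.14 and -0.14. The leukocyte markers summed to 3.53 and 2.81, with a log2 fold change of -0.77 for *Cd68* and 0.13 for *Ptprc*, and *Pecam1*, the one measured of 3 endothelial markers (*Cdh5* and *Kdr* were on neither array), was at 0.0939 and 0.0798. The part of these cells in the histone values was not tested.

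Because histone genes are close copies of each other, the probes themselves come first. The following probes for H2A genes lie at the 3′ end of the coding sequence. They are shown because their near identity limits which gene each one can be said to measure. Capitals mark the bases that differ from the *Hist1h2ak* probe or lie past its ends.
*Hist1h2ak*: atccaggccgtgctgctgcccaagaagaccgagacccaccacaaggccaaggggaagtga
*Hist1h2af*: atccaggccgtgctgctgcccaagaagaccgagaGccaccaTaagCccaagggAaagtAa
*Hist1h2an*: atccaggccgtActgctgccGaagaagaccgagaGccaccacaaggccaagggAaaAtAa
*Hist2h2aa2*: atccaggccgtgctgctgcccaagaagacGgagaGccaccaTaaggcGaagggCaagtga
*Hist1h2ah*: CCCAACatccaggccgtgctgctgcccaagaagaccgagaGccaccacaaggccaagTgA

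The *Hist1h2ak* probe lies at chr13:21845304-21845363 of build mm9 on the minus strand, the *Hist1h2af* probe at chr13:23626113-23626172 on the plus strand and the *Hist2h2aa2* probe at chr3:96043781-96043840 on the minus strand. Although they lie on 2 chromosomes, these probes matched the *Hist1h2ak* probe in 55 bases each. *Hist1h2an* matched it in 54 bases and *Hist1h2ah*, which starts 6 bases earlier, in 51. A second set joins *Hist1h2aa*, a gene known from testis, with *Hist2h2ac* of the Hist2 cluster, and capitals mark the bases of the former that differ from the latter or lie past its ends.
*Hist2h2ac*: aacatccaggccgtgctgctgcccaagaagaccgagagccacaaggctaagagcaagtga
*Hist1h2aa*: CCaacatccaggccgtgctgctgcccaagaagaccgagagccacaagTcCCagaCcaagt

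These probes lie at chr3:96024378-96024437 on the minus strand and at chr13:24026659-24026718 on the plus strand, and 54 of 60 bases matched. In contrast, the probe of the linker histone gene *Hist1h1b*, the member with the largest change, had no close copy among the array's probes. It lies at chr13:21871923-21871982 on the minus strand, and capitals mark the lysine codons in frame 1.
*Hist1h1b*: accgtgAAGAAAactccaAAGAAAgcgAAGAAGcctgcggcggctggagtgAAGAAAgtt

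Read in that frame the probe held 20 codons, of which 8 encode lysine and 0 are stop codons, as in the lysine-rich tail for which H1 is known. The longest run of bases it shared with a probe of another Hist-cluster gene was 9.

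No gene of the clusters was past 2-fold in either direction. Over all 20350 measured genes, 0.885% were higher by 2-fold or more with siRNA-*Ppp2r5d* and 1.07% lower. At 1.5-fold, 0 members were higher, beside 3.36% of all genes, and 2 of 54 were lower, beside 4.65% of all genes. These were *Hist1h1b* and *Hist1h2bq*. The pattern of the histone genes was instead a small shift that many members had in common. Of the 54 genes, 42 (77.8%) had a log2 fold change below 0, while 45.9% of all measured genes did. However, 18 of the 54 had a probe that shared a run of 20 or more bases with that of another member. The 54 values are therefore not 54 separate measurements. The median over the members was -0.16 and that over all genes 0.026. Quartiles were -0.27 and -0.089 for the members, and -0.16 and 0.18 for all genes. The scanner software's error model gave the log2 fold change of a member probe an SD between 0.204 and 0.423, with a median of 0.204 over 64 measured probes. By that model 28 of the 64 probes were more than 1 SD from 0, 23 of them below and 5 above, and 7 probes were more than 2 SD from 0, 6 of them below. The same counts over all measured probes of the array were not made, so nothing particular to the members can be read from them. When intensities were scaled to spike-in probes the median of all genes went to -0.19, and changes under that scaling are relative to this shift. Both that scaling and the main one subtract a single constant per array. The difference between the members' median and that of all genes, -0.18, is therefore the same in both by construction. It was -0.25 after quantile normalization or cyclic loess.

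**Figure D1:**
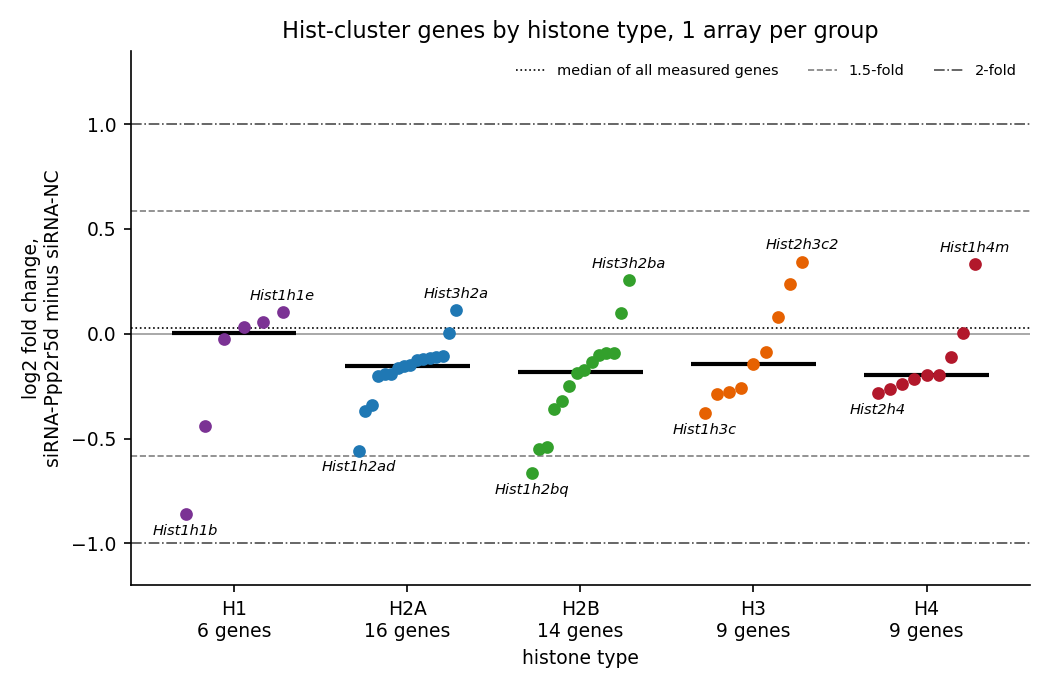
Log2 fold change (siRNA-Ppp2r5d minus siRNA-NC, vertical axis) of the 54 measured Hist-cluster genes, 1 point per gene, grouped by histone type on the horizontal axis; black bars are the medians of each type, and lines mark 0, the median of all measured genes, 1.5-fold and 2-fold. Most points of H2A, H2B, H3 and H4 lie below 0, no point reaches 2-fold, and the lowest is Hist1h1b at -0.86.

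Among the core histones, members of H2A, H2B, H3 and H4 were each mostly below 0. For H2A the median was -0.15, with 14 of 16 measured genes below 0, 9 of them read by probes with shared sequence. For H2B it was -0.18, with 12 of 14, for H4 -0.20, with 7 of 9, and for H3 -0.14, with 6 of 9. The H1 genes, with a median of 0.003 and 3 of 6 below 0, ran from -0.86 to 0.10. Whether the types differ was not tested. Under the alternatives run, the medians of H2A, H2B, H3 and H4 were below 0 in each, whereas that of H1 ran from -0.22 with spike-in scaling to 0.031.

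H1 binds the DNA that enters and leaves the nucleosome and compacts the fibre. *Hist1h1b* had an intensity of 2060 with siRNA-NC and of 996 with siRNA-*Ppp2r5d*. Its log2 fold change was -0.86, or 1.81-fold lower, and it was between -1.08 and -0.81 under the alternatives. It was the one gene of the clusters that came past 2-fold in any of them, with spike-in scaling. *Hist1h1d* was measured by 2 probes, with 515 and 367 on one and 73.1 and 42.7 on the other. Both were lower with siRNA-*Ppp2r5d*, with log2 fold changes of -0.30 and -0.58. They lie apart, at chr13:23647452-23647511 and chr13:23649787-23649846, and whether they measure the same transcript was not tested. The 4 other H1 genes lay close to 0. *Hist1h1c* had -0.027, with intensities of 16300 and 14200 on one probe and 1530 and 1290 on the other. *Hist1h1a* had 0.058 and *Hist1h1e*, the highest of the type, 0.10, with intensities of 2820 and 2650. *Hist1h1t*, the linker histone of spermatocytes, was barely above background at 16.8 and 15.03, with 0.034 and an error model SD of 0.423. Of the 6 genes, only *Hist1h1b* and *Hist1h1d* were thus lower by more than 1 SD of that error.

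**Figure D2:**
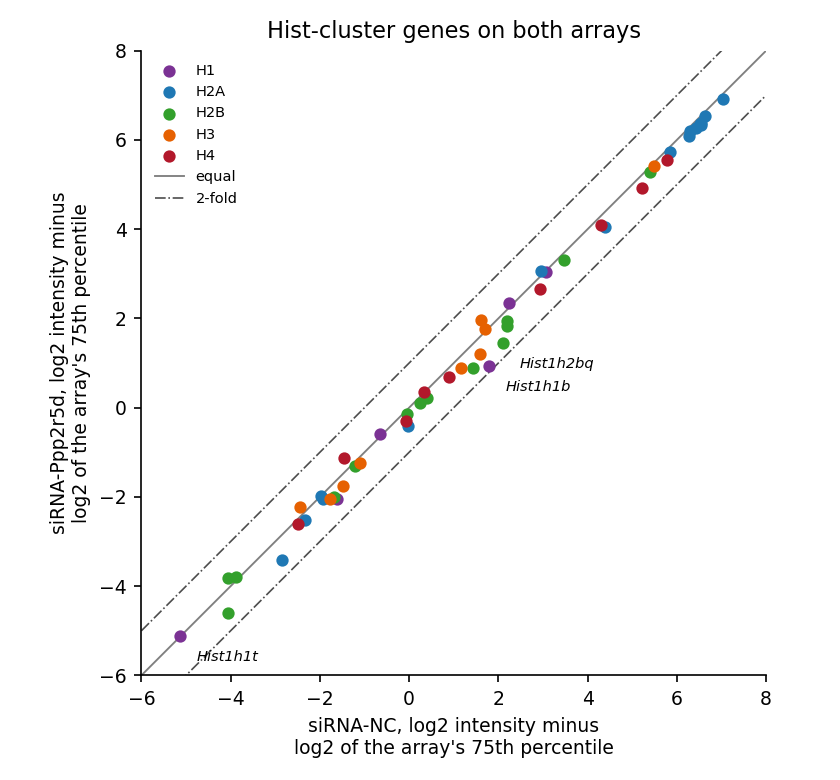
Scaled log2 intensity of each measured Hist-cluster gene on the siRNA-NC array (horizontal axis) and on the siRNA-Ppp2r5d array (vertical axis), both as log2 intensity minus log2 of the 75th percentile of the array, 1 point per gene and coloured by histone type. Points follow the line of equality over the whole range of intensity, and all lie inside the 2-fold lines.

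H2A and H2B pair as dimers at the faces of the nucleosome. Of the 16 measured H2A genes, 7 were measured by the near-identical probes shown above. Counting probes that share a run of 20 or more bases with the *Hist1h2ah* or *Hist1h2an* probe, 9 probes of 9 genes formed this set, which adds *Hist1h2ag* and *Hist1h2ao* to the 7 printed. Their intensities ran from 34200 to 77900 with siRNA-NC and from 27500 to 62900 with siRNA-*Ppp2r5d*. Their log2 fold changes were between -0.20 and -0.11, all 9 below 0. A probe of *Hist1h2ai* stands outside this set but shared 23 bases with the *Hist1h2ak* probe. It had intensities of 293 and 251 and a log2 fold change of -0.029. The probes of *Hist1h2an*, at chr13:21902669-21902728, and *Hist1h2ao*, at chr13:21902695-21902754, overlap in the genome by the positions in the files. The *Hist1h2ai* probe just described, at chr13:21902706-21902779, overlaps both. *Hist1h2aa* had intensities of 59100 and 48000 and a log2 fold change of -0.11. Since 54 of its 60 probe bases match *Hist2h2ac*, this signal cannot be assigned to the testis gene. The 9 other H2A probes, of 7 genes, ran from -0.56 to 0.42, with 7 of 9 below 0. *Hist1h2ad* was the lowest, with intensities of 82.3 and 49.0, a log2 fold change of -0.56 and an error model SD of 0.226. Under the alternatives its value ran from -0.78 to -0.24. *Hist1h2ac* had -0.37, with 582 and 394. *Hist1h2ab*, at 12500 and 8630, had -0.34. The highest H2A value, 0.11 for *Hist3h2a*, is a mean over 2 probes that went opposite ways. One had 5190 and 3980, a log2 fold change of -0.19, and the other 4090 and 4780, with 0.42. The direction of *Hist3h2a* is therefore not settled.

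Among the H2B genes, *Hist1h2bq* was lowest. Its probe at chr13:21929140-21929199, plus strand, had an intensity of 2550 with siRNA-NC and of 1400 with siRNA-*Ppp2r5d*, which gave a log2 fold change of -0.67, or 1.59-fold lower. It was between -0.89 and -0.61 under the alternatives. *Hist2h2bb* had 2 probes that were both lower, with 2030 and 1180 on one and 1250 and 783 on the other, and log2 fold changes of -0.59 and -0.48. These probes lie apart, at chr3:96082754-96082813 and chr3:96074056-96074115, and whether they measure the same transcript was not tested. *Hist3h2bb-ps*, annotated as a pseudogene, had -0.55 at intensities of 35.5 and 21.2, where the error model SD was 0.303. *Hist1h2ba*, the H2B of testis, had 2700 and 1840 and a log2 fold change of -0.36. The longest run its probe shared with another member's probe was 17 bases, with a probe of *Hist1h2bb*. When these probes are lined up on that run, most of their overlapping bases match. This alignment lies outside the shifts at which matching bases were counted. The *Hist1h2ba* signal therefore cannot be assigned to the testis gene. The other 2 members were above 0. *Hist3h2ba* had 35.3 and 36.8 with a log2 fold change of 0.26, which ran from 0.036 to 0.80 under the alternatives, and *Hist1h2bp* had 40.1 and 37.6 with 0.098. Close to 0 was also *Hist1h2bc*, which had 24800 and 20300 and a log2 fold change of -0.093.

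H3 and H4 form the tetramer at the centre of the nucleosome. In H3 the lowest member was *Hist1h3c*, with intensities of 1790 and 1200 and a log2 fold change of -0.38. The highest of all members was *Hist2h3c2*, measured by 2 probes that differed by 0.033, with 1910 and 2150 on one and 1740 and 1910 on the other. Its log2 fold change was 0.34, and it was between 0.12 and 0.37 under the alternatives. *Hist1h3a* was also above 0, with 108 and 112 and a log2 fold change of 0.24. H4 proteins are encoded by many genes with the same amino acid sequence. Of the H4 genes, *Hist2h4* was lowest with -0.28, at 21900 and 15800, and *Hist1h4m* highest with 0.33, at 216 and 238. The others lay between -0.26 for *Hist4h4* and 0.004 for *Hist1h4i*.

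One H4 probe allowed the error within an array to be seen, because it was printed in 10 spots. On this probe of *Hist1h4d*, siRNA-NC spots ran from 63300 to 67300 with a median of 66000, and siRNA-*Ppp2r5d* spots from 49700 to 52300 with a median of 51200. Before scaling, the spots of the arrays did not overlap, but the 75th percentiles of the arrays, 593 and 519, differed as well. For how many other probes with 10 spots the spots did not overlap was not counted. After scaling, the log2 fold change was -0.18 ± 0.043 (SD, n = 10 spots), from -0.22 to -0.092. Over 154 probes with 10 spots each the median SD was 0.039. This error is of spots on 1 pair of arrays and not of cultures. The other probe of *Hist1h4d* gave -0.26. Over 10 genes with 2 measured probes, the probes of a gene differed by a median of 0.12 on the log2 scale, from 0.033 to 0.607, and 1 gene, *Hist3h2a*, had probes on either side of 0.

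The share of members below 0 differed with the intensity of their probes, and so did that of other genes. Of the 15 members with a mean intensity of 10000 or more, all 15 were below 0, between -0.34 and -0.089, while 12.8% of 1736 other genes in this range were below 0 and their median was 0.16. Among members from 1000 to 10000, 10 of 14 were below 0, with a median of -0.26, beside 37.9% and 0.057 for the other genes. From 100 to 1000 it was 14 of 19, with a median of -0.14, beside 53.7% and -0.022. Under 100 it was 3 of 6, with a median of -0.038, beside 51.6% and -0.016. The bright members were 10 H2A, 1 H2B, 1 H3 and 3 H4 genes. As 11 of the 15 had a probe that shared a run of 20 or more bases with that of another member, they are not 15 separate measurements. The 4 without such a run, *Hist1h2ab*, *Hist1h2bc*, *Hist1h3d* and *Hist2h4*, ran from -0.34 to -0.089. Whether each of them measures a single gene was not tested.

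**Figure D3:**
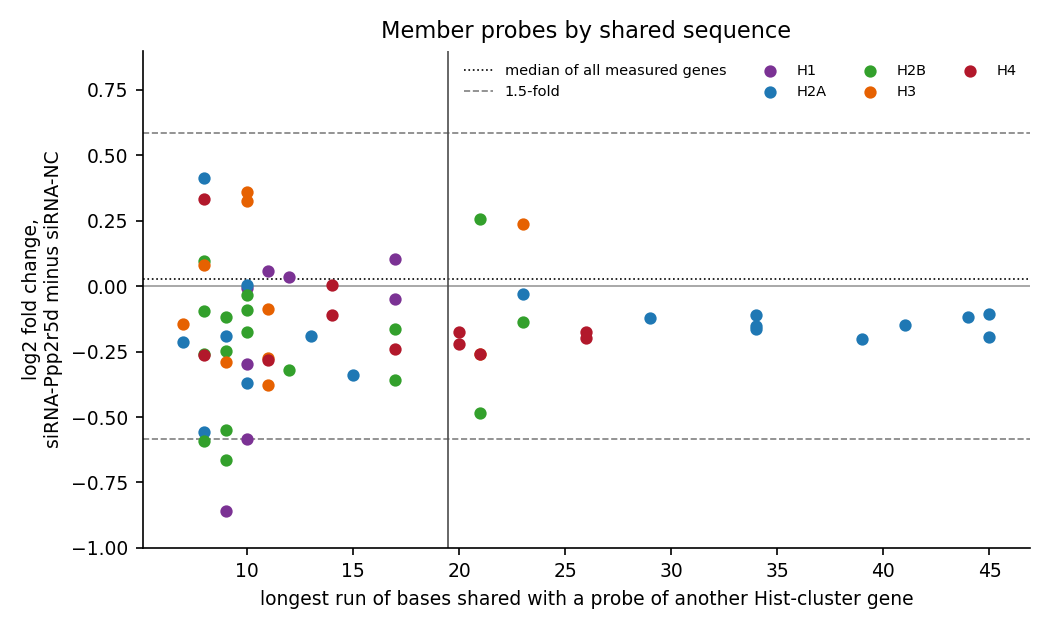
Log2 fold change (vertical axis) of the 64 measured member probes against the longest run of bases that each shares with a probe of another Hist-cluster gene (horizontal axis), 1 point per probe and coloured by histone type; the vertical line separates runs of 20 or more bases. The 20 probes to the right of it lie between -0.48 and 0.26 and the 44 to the left between -0.86 and 0.42.

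Cross-hybridization was described for the whole group from the probe sequences. Set against every probe of the array, 9 of the 64 measured member probes matched a probe of another gene in 50 or more of 60 bases, and all 9 were below 0, between -0.24 and -0.11. They were the 7 H2A probes printed above and the H4 probes of *Hist1h4c* and *Hist1h4k*. By the longest shared run, 20 probes of 18 genes shared 20 or more bases with a probe of another member, of which 18 were below 0, with a median of -0.16. The other 44 probes, of 38 genes, had a median of -0.18, with 33 below 0. With these 44 probes alone, 28 of 38 genes were below 0 and their median was -0.19, beside -0.16 for all 54 genes. Probes were compared only with other probes. Similarity to the rest of a member's mRNA or to transcripts that the array does not probe was not analysed here. The 44 probes also still include that of *Hist1h4c*, which matched a *Hist1h4k* probe in 52 of 60 bases. Also among them are the probes of *Hist1h2ba* and *Hist1h2bb* that share a run of 17 bases. The 44 probes are therefore not known to be free of cross-hybridization.

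**Figure D4:**
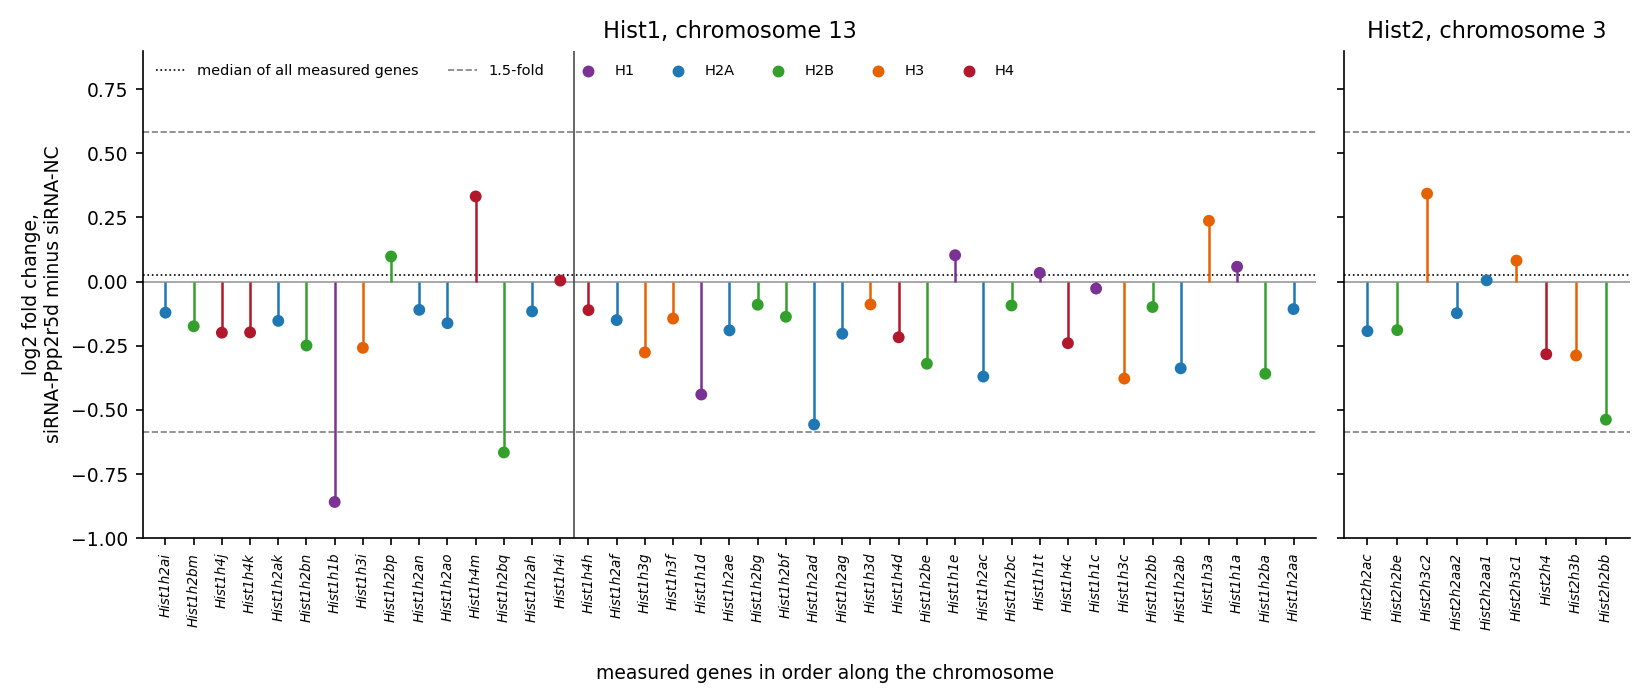
Log2 fold change (vertical axis) of the measured genes of the Hist1 cluster on chromosome 13 and the Hist2 cluster on chromosome 3, in order of position along the chromosome (horizontal axis, not to scale) and coloured by histone type; the vertical line in the left panel marks the gap between the segments of Hist1. Values below 0 are found along both clusters, and Hist2h3c2, the highest value, stands between genes below 0.

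Members below 0 were spread along the chromosomes. The first segment of the Hist1 cluster held 15 measured genes with probe starts from 21808994 to 22133139 of chromosome 13. Its median was -0.16, with 12 below 0. The second held 26, with starts from 23622937 to 24026659, and had a median of -0.15, with 22 below 0. In the Hist2 cluster on chromosome 3, 6 of 9 were below 0, with a median of -0.19. Neighbours could differ there: *Hist2h3c2* was at 0.34, while *Hist2h2be* before it was at -0.19 and *Hist2h2aa2* after it at -0.12. At the far end, *Hist2h4*, *Hist2h3b* and *Hist2h2bb* had -0.28, -0.29 and -0.54. Of the 3 Hist3 genes on chromosome 11, 1 was below 0, and *Hist4h4* on chromosome 6 had -0.26.

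Upstream of their start sites, many histone genes carry short promoter motifs, which other genes can carry too. These motifs were counted in the RefSeq sequences of assembly GRCm38.p6. All 56 members matched a RefSeq symbol and 49 had a promoter sequence, of which the 250 bases before the start were searched on both strands. CCAAT, the box bound by NF-Y, was in 41 of 49 (83.7%), beside 33.8% of all 32851 promoters. It was in 6 of 6 H1, 17 of 17 H2A and 11 of 11 H2B promoters, but in 2 of 8 H4 promoters. ATTTGCAT, the octamer bound by Oct factors, was in 13 of 49 (26.5%) beside 1.6% of all, and these were 7 H2A and 6 H2B promoters. TATAAA was in 24 of 49 (49%) beside 12.4% of all. These are matches of letters, not sites shown to be bound. The stretches around the motifs are given for *Hist1h1b* and *Hist2h2bb*, an H1 and an H2B member with a log2 fold change under -0.5, with the motifs in capitals.
*Hist1h1b*: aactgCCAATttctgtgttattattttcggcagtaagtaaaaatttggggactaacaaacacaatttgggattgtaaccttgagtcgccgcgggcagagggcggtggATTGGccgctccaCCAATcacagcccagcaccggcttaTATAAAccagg
*Hist2h2bb*: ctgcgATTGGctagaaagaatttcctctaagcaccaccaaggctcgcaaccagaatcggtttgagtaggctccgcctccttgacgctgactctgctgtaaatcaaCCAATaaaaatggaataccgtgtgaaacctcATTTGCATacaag

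The first is chr13:21780643-21780798 of GRCm38.p6 on the minus strand, from 173 to 18 bases before the start. The second is chr3:96269516-96269664 on the plus strand, from 184 to 36 bases before the start. ATTGG is CCAAT on the opposite strand. The 40 measured members with CCAAT had a median log2 fold change of -0.17, with 33 below 0, and the 8 without it had -0.054, with 4 below 0. All 8 without it were H3 or H4 genes, so this pair also differs in histone type. H2A and H2B members with ATTTGCAT had a median of -0.19 (n = 13), and those without it -0.14 (n = 14). Members with TATAAA had -0.14 (n = 23) and those without -0.16 (n = 25). The ranges of all these pairs overlapped, and no difference between them was tested.

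Other genes of histone biology were taken from lists of general knowledge. Histone variants encoded outside the clusters, several of which are made independently of replication, had a median of -0.029 over 12 measured genes, 7 of them below 0, and none was past 1.5-fold. *H2afz* had intensities of 64100 and 57200 and a log2 fold change of 0.029, and *H2afx*, whose product marks DNA breaks, had 5220 and 4230, with -0.11. The H3.3 genes *H3f3a* and *H3f3b* had 0.21 and 0.037. *H1f0*, a linker histone of resting and differentiated cells, was highest with 0.46, from 142 and 171 averaged over 2 probes. The lowest was *Cenpa*, the H3 variant of centromeres, with 2450 and 1530 and a log2 fold change of -0.48.

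For transcription of the clusters and 3′ end processing of their mRNAs, 16 genes were measured, with a median of 0.065, 5 below 0 and none past 1.5-fold. *Npat*, the coactivator of histone genes, had 401 and 370 and a log2 fold change of 0.077. *Slbp* had 303 and 226 over 4 probes and -0.23. *Lsm11*, a part of the U7 particle that cuts the pre-mRNA, was highest with 0.34.

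Histone chaperones, which carry new histones to DNA, had a median of -0.063 over 21 genes, 13 below 0. Over all measured genes, 45.9% were below 0, 4.65% were lower by 1.5-fold or more and 1.07% by 2-fold or more. Past 1.5-fold were 2 chaperone genes, both lower, and 1 of them was past 2-fold. *Chaf1b*, a subunit of the assembly factor CAF-1, had 1930 and 639 on the 1 measured of its 2 probes, with a log2 fold change of -1.40. *Asf1b*, which hands H3 and H4 to CAF-1, had 10400 and 4660, with -0.97. *Chaf1a*, the large CAF-1 subunit, had 632 and 369, with -0.58, and *Hjurp*, the chaperone of the centromeric H3 variant, had -0.56.

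A reference list of S phase genes outside histone biology had a median of -0.58 over 15 measured genes. Over all measured genes, 45.9% were below 0, 4.65% were lower by 1.5-fold or more and 1.07% by 2-fold or more. In the S phase list 14 genes were below 0, 7 were lower by 1.5-fold or more and 4 of these by 2-fold or more. The 4 were *Mcm5* with -1.94, *Cdc6* with -1.73, *Mcm6* with -1.19 and *Ccne1* with -1.09, which encode parts or loaders of the replicative helicase and a G1/S cyclin. *Mcm2*, *Ccna2* and *Mcm3*, also past 1.5-fold, had -0.97, -0.90 and -0.75. Not all genes of the list were lower: *Pcna* had 0.080 and *Cdk2* -0.011. Of the 54 members of the clusters, 2 were lower by 1.5-fold or more, against 8 with spike-in scaling. That scaling shifts all genes down, and 80% of all genes were below 0 under it. There were 3 where each gene took its brightest probe, and 3 with probes that share no run of 20 bases. How many of all genes pass 1.5-fold under these alternatives was not counted. The members' median of -0.16 and the S phase median of -0.58 are given side by side, since the difference was not tested. Which genes stand in the S phase list was chosen with their earlier results known.

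**Figure D5:**
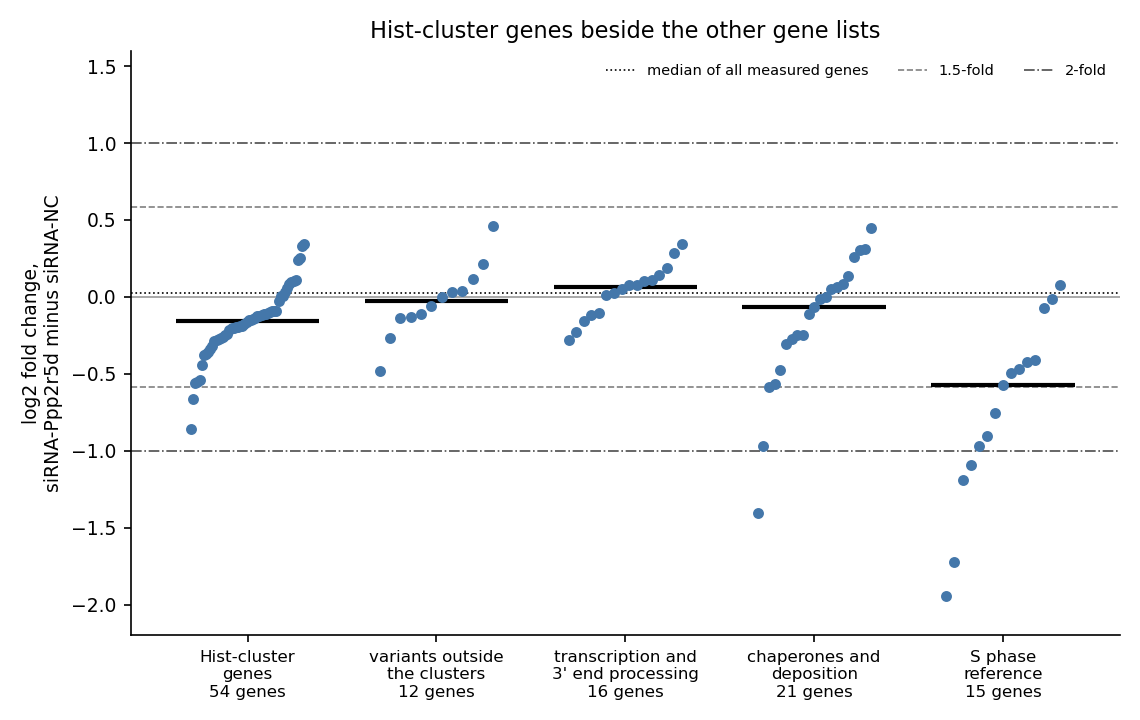
Log2 fold change (vertical axis) of the measured genes of 5 lists, 1 point per gene, with black bars for the medians and lines for 0, the median of all measured genes, 1.5-fold and 2-fold. Hist-cluster genes lie between -0.86 and 0.34, and the S phase reference genes reach -1.94.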

How the data were processed

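Gene expression of MCMs was measured with 2 one-colour Agilent arrays, 1 per siRNA. The authors deposited the background-corrected intensity of each spot from Feature Extraction 10.7.1.1, not normalized between arrays, and a table of log2 values. The latter matched a quantile normalization with median absolute differences of 1.8e-05 and 1.09e-05. The primer used for labelling is not given in the sources used here, and how well it reaches RNAs without a poly(A) tail is not known.

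Control and outlier spots (126 for siRNA-NC, 95 for siRNA-*Ppp2r5d*) were left out, spots of a probe averaged, and each array's 75th percentile (593 and 519) was subtracted on the log2 scale. Of 59305 spots, 35544 and 35174 were well above background and 0 saturated. A gene's value is the mean log2 fold change over probes well above background on both arrays. Signal over background and the number of arrays limit the precision.

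Members, lists and named genes were chosen with earlier results of these data known. Every member may be named; those past 2-fold, the highest and lowest of each type, those with probes that disagree and the testis genes are given with values. Outside the clusters the text names list genes past 1.5-fold and 8 fixed genes; *Col1a1*, *Col1a2*, *Dcn*, *Postn*, *Ptprc*, *Cenpa*, *Lsm11*, *Chaf1a*, *Hjurp*, *Pcna* and *Cdk2*, and other members given with values, were chosen after their values were seen. Probes were compared without gaps at shifts of up to 10 bases. The gene and sequence steps were tested on simulated data. The tools were Python 3.11.15, pandas 2.3.3 and NumPy 2.4.6, limma 3.58.1 in R 4.3.3 for normalization, and matplotlib 3.10.9 for the plots.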

Additional observations from a re-analysis of the deposited data

How the results depend on the processing

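No paired analysis was possible because each group had 1 array, and no replicate could be left out for the same reason. A median is taken as moved where it shifted by 0.039 or more, the median SD between spots. The medians of the clusters, H2A, H2B and H3 became -0.24, -0.30, -0.23 and -0.22 under quantile normalization, -0.25, -0.29, -0.23 and -0.21 under cyclic loess, and -0.24, -0.29, -0.23 and -0.22 in the authors' log2 values. Scaling to spike-in probes gave -0.38 for the clusters, -0.22 for H1, -0.37 for H2A, -0.40 for H2B, -0.36 for H3 and -0.42 for H4, with 1 gene at least 2-fold lower. Normexp correction gave -0.14 for H2B and -0.084 for H3. A threshold of 1.5-fold gave 2 lower genes, and 8 if combined with spike-in scaling. It gave 3 if each gene took its brightest probe, and 3 with probes that share no run of 20 bases. The share of all genes past 1.5-fold was counted only under the main scaling. With no filter on dim probes, 1 gene, *Hist3h2ba*, was higher by 1.5-fold or more. With probes that share no run of 20 bases, chosen after seeing the data, H2A had -0.21. Except for these shifts by construction, the cause was not tested. The other alternatives (median of detected probes, outlier spots kept, no filter or a stricter filter on dim probes, the probe of highest mean signal, probes without a near-identical probe, 4-fold) moved no median and left 0 genes past 2-fold lower. Of 13 named members, 10 kept their sign in every alternative that gave a value. *Hist1h1e* and *Hist1h1t* were below 0 with spike-in scaling, as was *Hist3h2a*, which was also below 0 with its brighter probe. Members under an intensity of 100 are limited by signal over background.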
